A study of Homo sapiens with 6 samples.

Results

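Lipid-sensing nuclear receptors and genes that they are known to induce were followed across BT474 cells carrying either variant of a long non-coding RNA. The 8 genes are the peroxisome proliferator-activated receptors PPARA, PPARD and PPARG, and ANGPTL4, PDK4, CPT1A, PLIN2 and ACADVL. Probes were taken by name, as every array probe whose gene name is one of the 8, which gave 13 of the 58201 probes, under 8 of the 43317 gene names. The 8 genes were chosen from results of these same arrays, so their levels and differences are given as a description and lend no support to a pattern. P-values are kept for other genes of the pathway. The lists of those genes were also chosen with earlier results of these data known, so their p-values are no independent test. Where the text says that a difference of one of the 8 passed or did not pass a threshold, that too is description and no test of the gene.

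BT474 is an ER-positive and HER2-positive line derived from a human breast tumor. RNA of 3 populations was hybridized to 6 one-color Agilent arrays, 2 per group. Control cells carried an empty pcDNA3.1 plasmid, BT474-Var1 cells the long variant 1 of NR2F1-AS1 (in pcDNA3.1/Hygro(+)), and BT474-Var4 cells the short variant 4 (in a plasmid that also encodes P2A-eGFP). All were stably transfected populations kept in RPMI-1640 with 10% FBS, with antibiotic selection after transfection. According to the paper, cells given either variant declined to a few survivors, which later formed colonies. Outgrowth of survivors and the variant itself therefore cannot be told apart. The sources used here do not give the empty plasmid of these Control cells by its full name, and no label says whether the A and B arrays came from separate cultures, so p-values measure the spread between arrays, which may be technical.

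Values are log2 intensities relative to the 75th percentile of the same array, so 0 is a fairly bright probe and 1 unit is a 2-fold difference. They compare arrays for 1 probe, not 1 probe with another. A probe was called dim on an array where the scanner software did not mark it well above background, and limma was run on the 31858 probes that at least 1 group had above background on both of its arrays. Passing means an adjusted p under 0.05. From 47.6% to 57.5% of probes per array were well above background, arrays of a group correlated at r = 0.993 to 0.996 across probes, and no spot was saturated. The NR2F1-AS1 probe A_19_P00320140 was at -0.42 and -0.51 on the BT474-Var1 arrays and dim on the other 4. A_24_P51080 was 1.67 on BT474-Var4 array A, similarly bright on array B and dim on both BT474-Var1 arrays. Control B was above background on it (-4.25), on A_22_P00006111 (-4.16) and on A_22_P00006112 (-3.61). A_22_P00006112 was otherwise above background in BT474-Var1 cells alone (-0.19 and -0.22). A_22_P00006111 was at 3.01 and 3.02 in BT474-Var4 and above background in BT474-Var1 cells (-1.69 and -1.52). The brightest arrays thus match the labels, but whether BT474-Var1 cells expressed the long variant alone was not tested. The paper reports that cells given the long variant also raised their endogenous short variant. All 6 arrays shared a slide, but its second column held the BT474-Var1 arrays and nothing else, so column and variant 1 cannot be told apart. All 8 luminal epithelial markers, ERBB2, ESR1, GATA3, KRT8, KRT18, KRT19, EPCAM and FOXA1, were above background on all 6 arrays. Of these 8, KRT19 (0.62), KRT8 (0.32) and ERBB2 (0.22) rose and EPCAM (-0.66) and FOXA1 (-0.50) fell with variant 1, and ESR1 (-0.47) and FOXA1 (-0.40) fell with variant 4. With 1 array of the compared groups left out, 1 rose and 2 fell with variant 1 and 0 passed with variant 4. The part of these shifts in the differences given here was not tested.

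PPARs are nuclear receptors that bind fatty acids and their derivatives, pair with a retinoid X receptor (RXR) on DNA, and induce genes that take up, store and burn fat. PPARA is best known for liver and PPARG for fat cells, while PPARD is found in most tissues. Of the induced genes, CPT1A loads long-chain fatty acids onto carnitine at the outer mitochondrial membrane, ACADVL takes the first step of their oxidation inside, and PDK4 holds back glucose oxidation by phosphorylating pyruvate dehydrogenase. PLIN2 coats lipid droplets, and ANGPTL4 is a secreted inhibitor of lipoprotein lipase that low oxygen also induces.

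The array probes that read PPARG are shown because they read separate exons of the receptor. Both are exonic, on the plus strand of chromosome 3 in hg19 coordinates, and lie in the parts of the transcript that encode the ligand-binding domain (A_23_P252062, chr3:12458499-12458558) and the DNA-binding domain (A_33_P3350726, chr3:12434128-12434187). The CPT1A probe (chr11:68527063-68527122, minus strand) and the brighter PLIN2 probe (chr9:19116370-19116429, minus strand) are coding as well.
PPARG A_23_P252062: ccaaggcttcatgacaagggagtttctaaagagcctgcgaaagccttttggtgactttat
PPARG A_33_P3350726: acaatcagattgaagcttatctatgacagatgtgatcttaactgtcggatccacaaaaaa
CPT1A A_23_P104563: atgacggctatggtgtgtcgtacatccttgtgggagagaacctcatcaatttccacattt
PLIN2 A_23_P134953: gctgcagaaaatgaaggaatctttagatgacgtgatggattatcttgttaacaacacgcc

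The 250 bases upstream of the RefSeq transcript starts (GRCh38.p14) were read for letters known from both regulators, because ANGPTL4 and PLIN2 are textbook targets of PPARs and of hypoxia-inducible factors. The letters searched on both strands were AGGTCA, the hexamer that nuclear receptors read, 2 such hexamers in a row spaced by 1 base (the repeat that PPAR and RXR bind), and ACGTG, the core of a hypoxia response element. ACGTG on both strands at once makes the E-box letters CACGTG, and such a place was counted once. All 8 genes matched, with 15 windows in all. The hexamer was in 3 of the 15 windows, all of PPARG, and in 12.1% of all 35116 windows of this length. Of these 3 windows, 2 overlap and hold the same hexamer, so it is counted in both. The spaced repeat was in none of the 15 and in 0.0171% of all windows, and ACGTG was in 4 of the 15 and in 18.5% of all. In the windows below, capitals mark AGGTCA and ACGTG on either strand. They show 1 core in ANGPTL4, 2 in PLIN2, and 2 hexamers and 1 core in the most upstream of the 6 PPARG windows. A match is a description of the letters, and enhancers within introns and further away were not read.
ANGPTL4, chr19:8363905-8364154, plus strand: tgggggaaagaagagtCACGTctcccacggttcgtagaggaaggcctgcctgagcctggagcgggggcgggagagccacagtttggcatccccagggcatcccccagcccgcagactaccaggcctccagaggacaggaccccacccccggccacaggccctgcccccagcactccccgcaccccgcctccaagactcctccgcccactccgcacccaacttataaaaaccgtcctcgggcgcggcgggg
PLIN2, chr9:19127493-19127742, minus strand: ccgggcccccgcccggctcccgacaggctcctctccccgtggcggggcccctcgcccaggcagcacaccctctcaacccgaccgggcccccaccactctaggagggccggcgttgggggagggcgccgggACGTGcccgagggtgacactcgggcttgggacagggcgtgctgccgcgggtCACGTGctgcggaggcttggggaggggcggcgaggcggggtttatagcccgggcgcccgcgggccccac
PPARG, chr3:12287118-12287367, plus strand: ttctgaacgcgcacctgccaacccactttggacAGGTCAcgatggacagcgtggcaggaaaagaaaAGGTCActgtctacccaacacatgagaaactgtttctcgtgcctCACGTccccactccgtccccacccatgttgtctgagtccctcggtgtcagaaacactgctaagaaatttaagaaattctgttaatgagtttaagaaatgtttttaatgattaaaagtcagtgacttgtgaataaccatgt

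PPARG was higher on both BT474-Var1 arrays than on the other 4, on each of its probes. On A_23_P252062 it was at -2.70 and -2.56 in Control, -1.31 and -1.45 in BT474-Var1, and -2.44 and -2.44 in BT474-Var4 cells, above background on all 6 arrays. Both BT474-Var1 arrays lay above the other 4, and the level was 2.38-fold that of Control cells (log2 difference 1.25, SE 0.08) against 1.14-fold in BT474-Var4 cells (0.19, SE 0.08). In bulk RNA, more cells expressing the gene and more RNA per cell cannot be told apart. The other probe, A_33_P3350726, read -4.23 (dim) and -3.30 in Control, -2.19 and -2.19 in BT474-Var1, and -3.33 and -3.92 (dim) in BT474-Var4 cells. It too was highest on the BT474-Var1 arrays, with more spread, 2.98-fold the Control level (1.58, SE 0.37), while BT474-Var4 cells differed from Control by 0.14 (SE 0.37). Between the variants the probes gave -1.06 (SE 0.08) and -1.44 (SE 0.37). With normexp, a background correction that adds a constant to every signal and so shrinks the differences of dim probes, variant 1 differed from Control by 0.41 and 0.35, and both passed. The dimmer probe's difference from Control was 1.11 without Control array A and did not pass without Control A or any 1 of the 4 variant arrays, and that between the variants did not pass without any 1 of the 4 variant arrays (-1.73 to -1.14).

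PPARD, the widely expressed receptor, stood nearly level. Its brighter probe, A_24_P252130, was at 3.39 and 3.35 in Control, 3.25 and 3.34 in BT474-Var1, and 3.36 and 3.29 in BT474-Var4 cells, and A_23_P214681 was at -1.58 and -1.72, -1.51 and -1.79, and -1.58 and -1.54 in the same order. The log2 differences from Control were between -0.07 and 0.09 (SE 0.06 and 0.12), smaller than the SE or close to it. PPARA was hardly detected. Its probe A_23_P211643 was dim on all 6 arrays (-6.75 to -5.53), and A_24_P570049 was above background on Control array B alone (-2.65, against -4.44 on Control A and -5.26 to -4.70 on the other 4), so neither probe was tested.

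ANGPTL4 had the widest range of the 8 genes. It was at -5.22 and -6.16 (both dim) in Control, -0.32 and -0.24 in BT474-Var1, and -3.19 and -3.45 (dim) in BT474-Var4 cells (A_33_P3295358, chr19:8439197-8439256 in hg19, at the end of the transcript). The 3 groups did not overlap, with BT474-Var1 cells highest and Control cells lowest. Since Control values were below background, the differences are bounds, taken against the dimmest well-above-background signal of each Control array: relative to Control, ANGPTL4 was at least 17.1-fold higher with variant 1 and at least 2.09-fold higher with variant 4. The bound for variant 4 uses a mean that includes the dim BT474-Var4 B, so it is not strict. Between the variants ANGPTL4 was 8.20-fold lower with variant 4 (-3.04, SE 0.33), a fitted value that includes the dim BT474-Var4 B, since 1 of the 2 BT474-Var4 arrays measured it. The fitted differences were 5.40, 2.37 and -3.04, and 1.24, 0.15 and -1.09 with normexp. Without BT474-Var4 A (2.23), or likewise without BT474-Var4 B, the rise with variant 4 did not pass.

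**Figure D1:**
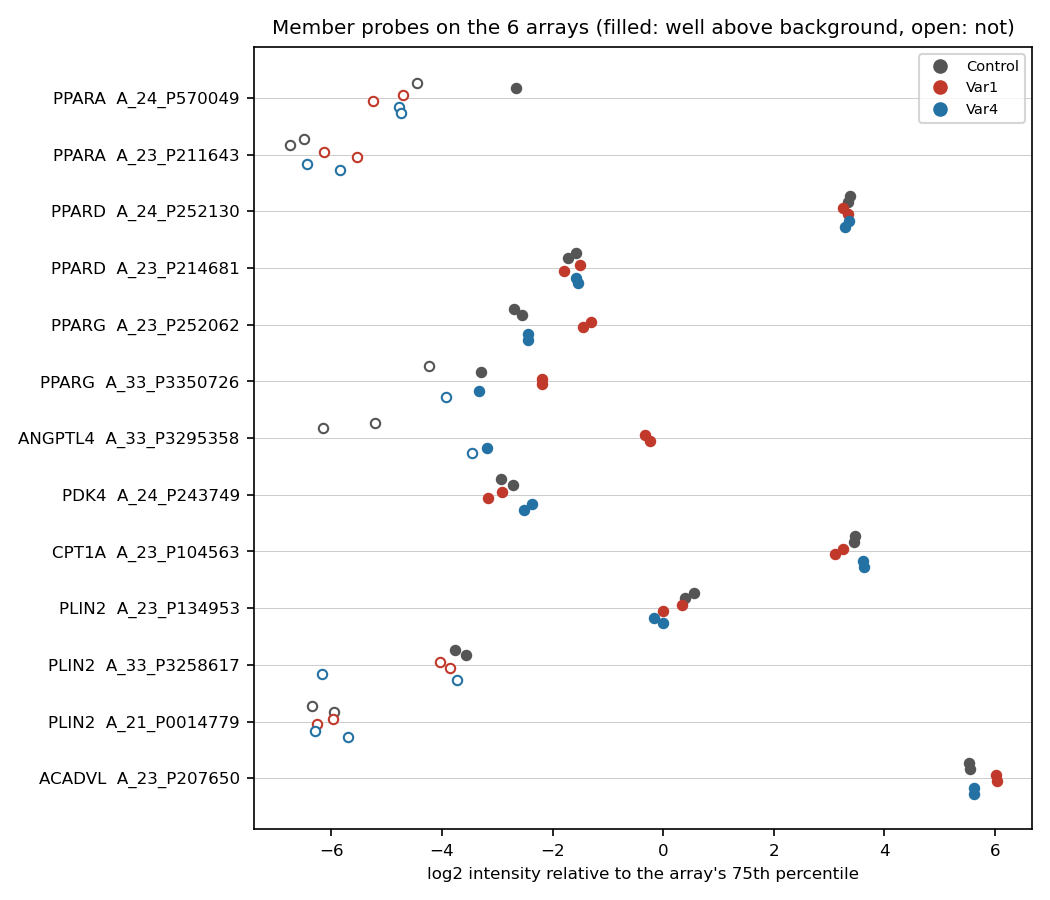
Log2 intensity relative to the array's 75th percentile (x axis) of all 13 probes of the 8 genes (rows) on the 6 arrays, gray for Control, red for BT474-Var1 and blue for BT474-Var4 cells, with open points where the probe was not well above background. ANGPTL4 spans from -6.16 to -0.24 and both PPARG probes are highest on the BT474-Var1 arrays, whereas the PPARD, PDK4, CPT1A and ACADVL points lie within narrow ranges.

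CPT1A and ACADVL, which start mitochondrial oxidation of long-chain fatty acids, moved in opposite directions in BT474-Var1 cells. CPT1A was at 3.47 and 3.45 in Control, 3.26 and 3.11 in BT474-Var1, and 3.61 and 3.64 in BT474-Var4 cells, with no overlap between groups. The differences were small, -0.27 (SE 0.07) with variant 1 and 0.17 (SE 0.07) with variant 4, and 0.44 (SE 0.07), or 1.36-fold, between the variants, which did not pass without BT474-Var4 B (0.43). The fall in BT474-Var1 cells was -0.17 and did not pass under quantile normalization, and it did not pass without Control A, Control B, BT474-Var1 B, BT474-Var4 A or BT474-Var4 B (-0.28 to -0.20). ACADVL was at 5.53 and 5.56 in Control, 6.03 and 6.03 in BT474-Var1, and 5.63 and 5.63 in BT474-Var4 cells, 1.40-fold higher in BT474-Var1 cells (0.49, SE 0.05) and 0.08 (SE 0.05) in BT474-Var4 cells.

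PDK4 was at -2.93 and -2.71 in Control, -2.91 and -3.17 in BT474-Var1, and -2.37 and -2.52 in BT474-Var4 cells. BT474-Var4 arrays were above the other 4, Control and BT474-Var1 arrays overlapped, and the variants differed by 0.59 (SE 0.13), or 1.51-fold. This difference was 0.07 and did not pass with normexp, and it did not pass without BT474-Var1 B, BT474-Var4 A or BT474-Var4 B (0.46 to 0.66). PLIN2 ran the other way from ANGPTL4. A_23_P134953 was at 0.57 and 0.40 in Control, 0.35 and 0.00 in BT474-Var1, and -0.17 and 0.00 in BT474-Var4 cells, lower than Control on all 4 variant arrays (-0.31 and -0.57, SE 0.15), and neither difference passed. With the BT474-Var1 A or B array left out, the BT474-Var4 difference kept its value of -0.57 and passed. The PLIN2 probe A_33_P3258617 was above background in Control cells alone (-3.77 and -3.57). It read -4.03 and -3.86 in BT474-Var1 and -6.18 and -3.73 in BT474-Var4 cells, all dim. BT474-Var4 B thus lay above Control A, and neither difference of this probe from Control passed. A_21_P0014779 was dim on all 6 arrays.

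**Figure D2:**
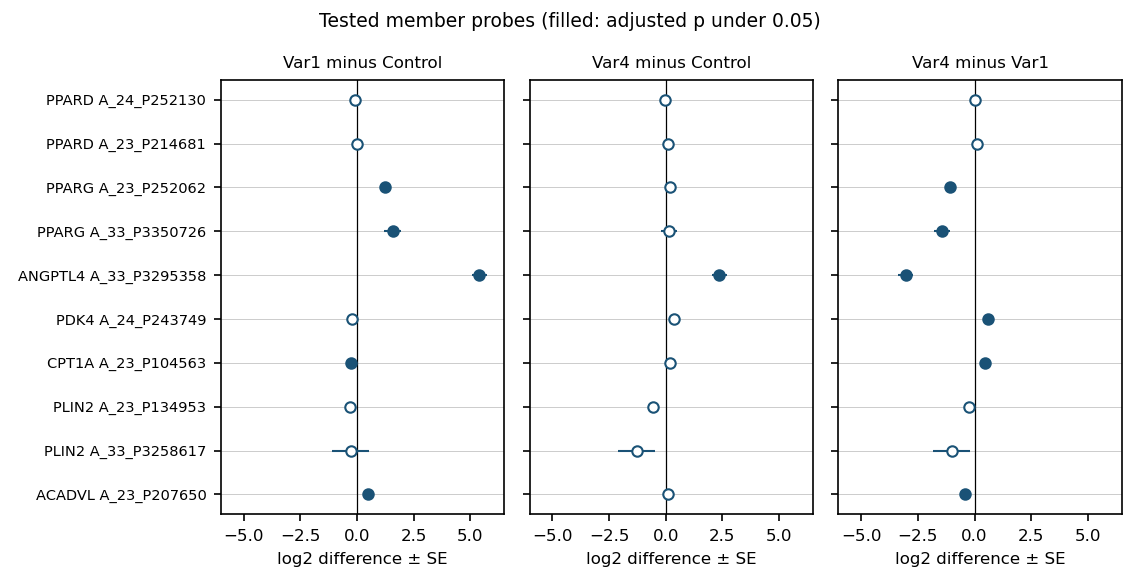
Log2 difference ± SE (x axes) of the 10 tested probes (rows) in 3 panels, BT474-Var1 minus Control, BT474-Var4 minus Control and BT474-Var4 minus BT474-Var1 cells, each group with 2 arrays; filled points have an adjusted p under 0.05. ANGPTL4 lies far from 0 in all 3 panels (5.40, 2.37 and -3.04, fitted values that include dim arrays), both PPARG probes in the first and last.

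Counted over the 10 tested probes, with variant 1 the level of 4 was above Control and that of 1 below it at an adjusted p under 0.05, where 14.1% of all tested probes were higher and 20.3% lower. 3 of the 10 had also changed 2-fold or more (3.94% of all). With variant 4, 1 was higher and 0 were lower (3 of the 10 had an unadjusted p under 0.05 by limma), where 9.87% of all tested probes were higher and 14.3% lower, and 1 of the 10 was at 2-fold or more (3.17% of all). Between the variants, 2 were higher and 4 lower in BT474-Var4 cells (20.4% and 20.8% of all), 3 of them at 2-fold or more (6.86% of all). The median log2 difference of the 10 probes was -0.04, 0.12 and -0.33 in the 3 comparisons, and that of all tested probes -0.04, -0.08 and -0.03. These genes were chosen from these comparisons and some probes were tested only because 1 group was bright, so nothing is read from the counts. The comparisons with Control share the 2 Control arrays. The split was 4 higher and 2 lower with normexp and 4 and 0 with quantile normalization in BT474-Var1 cells, 2 and 1 with normexp in BT474-Var4 cells, and 1 and 5 with normexp between the variants. The count in BT474-Var1 cells was 3 without Control A, BT474-Var1 B, BT474-Var4 A or BT474-Var4 B, and that in BT474-Var4 cells was 2 without either BT474-Var1 array and 0 without BT474-Var4 A.

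The wider pathway was described with 134 genes in 8 lists, of which 115 had a tested probe (the brightest tested probe of each gene). Against Control, 21 were higher and 26 lower with variant 1, beside 14.2% and 20.7% of all 24619 genes tested. With variant 4, 19 were higher and 20 lower, beside 10.2% and 14.6%. Between the variants 31 were higher and 20 lower in BT474-Var4 cells, beside 20.9% and 21% of all genes. At 2-fold or more, 6, 6 and 10 of the 115 genes passed in the 3 comparisons, beside 4%, 3.23% and 6.95% of all genes tested. The median differences were -0.05, 0.01 and 0.04 against -0.05, -0.08 and -0.03 for all genes. The shares of all genes given above also stand beside the counts of each list below. The count of 47 in BT474-Var1 cells was 23, 19, 27 and 29 without Control A, Control B, BT474-Var1 A and BT474-Var1 B, and the count of 39 in BT474-Var4 cells was 13, 10, 19 and 16 without Control A, Control B, BT474-Var4 A and BT474-Var4 B. With the replicate letter as a block the 39 were 25, and with quantile normalization they split into 19 higher and 12 lower.

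**Figure D3:**
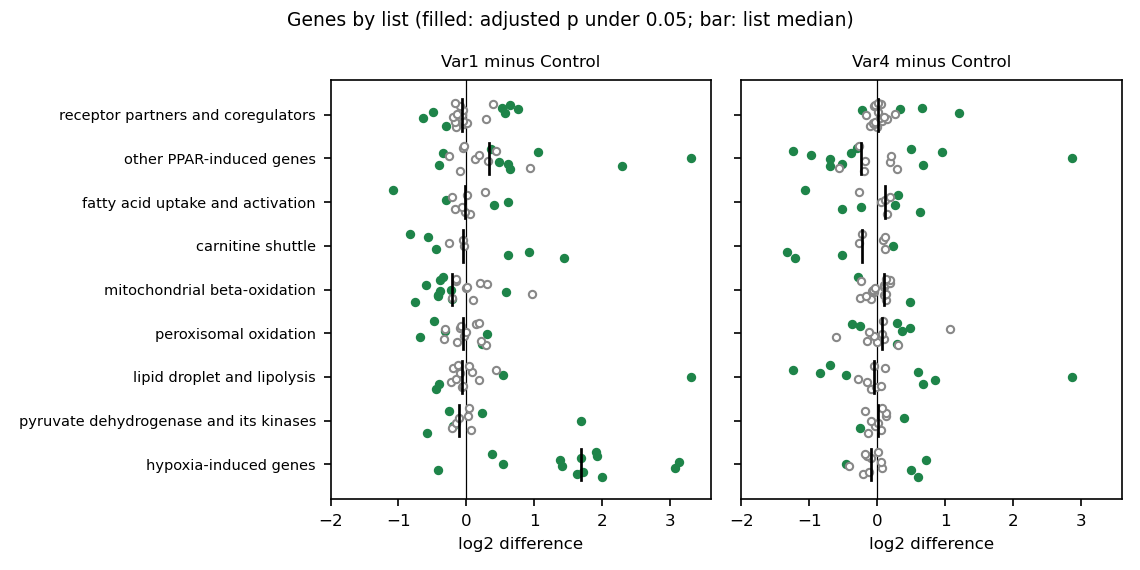
Log2 difference from Control (x axes) of each tested gene of the 8 pathway lists and of the hypoxia-induced genes (rows), for BT474-Var1 (left) and BT474-Var4 cells (right); filled points have an adjusted p under 0.05 and bars are list medians. The mitochondrial β-oxidation genes lie mostly left of 0 in BT474-Var1 cells (median -0.22), the other PPAR-induced genes have medians of 0.34 and -0.23, and the hypoxia-induced genes stand near 1.68 with variant 1 and near 0 with variant 4.

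Among the receptors' partners and coregulators, 4 of 20 genes rose and 3 fell with variant 1, and 3 rose and 1 fell with variant 4. RXRA, the main partner of PPARs, was at 4.51 and 4.52 in Control, 4.42 and 4.41 in BT474-Var1, and 4.44 and 4.47 in BT474-Var4 cells (-0.10 and -0.06, SE 0.05), and RXRB exceeded Control by 0.64 in BT474-Var1 cells (SE 0.10 and limma adjusted p = 0.0128). The coactivator PPARGC1A, known for driving mitochondrial genes, was higher in both, by 0.57 (adjusted p = 0.0182) with variant 1 and by 1.20 (adjusted p = 0.00587) with variant 4, each with SE 0.10. Its 6 values were -1.14 and -1.03 in Control, -0.63 and -0.40 in BT474-Var1, and 0.16 and 0.06 in BT474-Var4 cells, so the 3 groups did not overlap. The smaller rise had an adjusted p of at most 0.0892 over the alternatives, and did not pass without Control A, Control B or BT474-Var1 B. PPARGC1B (-0.50) and NCOA3 (-0.63) fell in BT474-Var1 cells, and PRKAA1, a catalytic subunit of the energy sensor AMPK, rose by 0.76 with variant 1 and 0.33 with variant 4. RXRB did not pass without either BT474-Var1 array, PPARGC1B without Control B, nor the smaller PRKAA1 rise without either Control or either BT474-Var4 array. With 1 array of the compared groups left out, 2 or 3 of the list rose and 1 or 2 fell with variant 1, and 1 or 2 rose and 0 fell with variant 4.

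Other genes that PPARs are known to induce moved in both directions. Of 32 genes, 18 had a tested probe, of which 7 rose and 2 fell with variant 1, and 4 rose and 7 fell with variant 4. One of the 7 falls was CD36, which was dim in both groups of that comparison and has no bound there. With 1 array of the compared groups left out, 3 to 5 rose and 1 to 3 fell with variant 1, and 3 or 4 rose and 3 or 4 fell with variant 4. Between the variants 2 rose and 6 fell in BT474-Var4 relative to BT474-Var1 cells (3 and 12 with normexp). LPL, FABP4, ADIPOQ, FABP1, PCK1 and FGF21 were among the 14 without a tested probe. CD36, a fatty acid transporter of the cell surface, was well above background on the BT474-Var1 arrays alone (-2.68 and -2.74, against -4.95 and -5.07 in Control and -5.71 and -5.70 in BT474-Var4 cells). Its level with variant 1 was at least 3.18-fold higher than the Control level. G0S2, an inhibitor of triglyceride breakdown, was dim in Control cells (-6.37 and -6.66) and brighter in BT474-Var1 (-3.48 and -2.94) and BT474-Var4 cells (-3.49 and -3.80, the latter dim), at least 2.25-fold and at least 1.67-fold higher, the latter with the dim array in its mean. Over the alternatives the fitted differences of these dim genes were as small as 0.36 for CD36 and as 0.34 and 0.21 for G0S2. CD36 and G0S2 were tested only because both BT474-Var1 arrays were bright, so no p-value is printed for them and nothing is read from their calls.

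KLF10 rose by 1.06 and 0.96 in BT474-Var1 and BT474-Var4 cells. PLIN1, the droplet coat of fat cells, fell by 1.24 in BT474-Var4 cells, where it was dim (at least 1.27-fold lower). CIDEC, a droplet fusion protein, moved in opposite directions, -0.41 with variant 1 and 0.68 with variant 4, a difference of 1.09 between the variants (SE 0.05, adjusted p = 0.0012). The muscle isoform CPT1B, whose locus has a read-through transcript with its neighbor CHKB, did the reverse, 0.62 with variant 1 and -0.52 with variant 4 (adjusted p = 0.0187 and 0.0379). Neither CPT1B difference passed without Control A or Control B, and the fall did not pass without BT474-Var4 A or BT474-Var4 B (adjusted p up to 0.0907 and 0.154).

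Among mitochondrial β-oxidation genes, falls outnumbered rises in BT474-Var1 cells, as they did among all genes tested (20.7% lower and 14.2% higher). Of the 19 tested genes of this list, 9 fell and 1 rose with variant 1 (median -0.22), and 1 fell and 1 rose with variant 4 (median 0.09). The thiolase ACAA2, which cuts off acetyl-CoA at the end of each cycle, fell by 0.75 in BT474-Var1 cells (2.54 and 2.47 in Control, 1.73 and 1.77 in BT474-Var1; adjusted p = 0.00379) and rose by 0.48 in BT474-Var4 cells (2.99 and 2.99; adjusted p = 0.00923). ETFA, which passes the electrons on, fell by 0.60, ACADM, the medium-chain counterpart of ACADVL, by 0.42, DECR1 by 0.39 and HADHA, a subunit of the trifunctional protein, by 0.38 in BT474-Var1 cells, while HADHB differed by -0.16 (adjusted p = 0.0742). ACADSB, which acts on branched short chains, was the 1 that rose (0.58). Between the variants 7 of the 19 were higher and 1 lower in BT474-Var4 cells, and ACAA2 differed by 1.24 (SE 0.05, adjusted p = 0.0012). The 9 falls were 4, 3, 5 and 5 without Control A, Control B, BT474-Var1 A and BT474-Var1 B, and with quantile normalization the list had 7 falls and a median of -0.07. In BT474-Var4 cells the rise of ACAA2 did not pass without Control A, Control B or BT474-Var4 B. ACADM did not pass in BT474-Var1 cells without Control A or BT474-Var1 B, DECR1 without Control B, nor HADHA without any 1 of the Control and BT474-Var1 arrays. With variant 4 the list's median was -0.03 without Control B and -0.01 without BT474-Var4 A or with normexp.

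In the carnitine shuttle, which carries fatty acids into mitochondria, 3 of 9 genes rose and 3 fell in BT474-Var1 cells, and 1 rose and 3 fell in BT474-Var4 cells. The transporters and the inner-membrane enzyme were among the falls in BT474-Var1 cells. CPT2 was at 2.60 and 2.55 in Control, 2.12 and 2.15 in BT474-Var1, and 2.70 and 2.68 in BT474-Var4 cells, lower by 0.44 in BT474-Var1 cells (adjusted p = 0.00689). SLC25A20, the carnitine carrier, differed by -0.84 (adjusted p = 0.0266), and SLC22A5, the carnitine importer, by -0.56 (adjusted p = 0.0267). Neither of these last falls passed without Control A, Control B or BT474-Var1 A, nor with the replicate letter as a block (adjusted p up to 0.113 and 0.115). ACACB, whose product malonyl-CoA inhibits CPT1, was at -0.69 and -0.39 in Control, 0.88 and 0.91 in BT474-Var1, and -1.63 and -1.88 in BT474-Var4 cells. It rose by 1.43 with variant 1 and fell by 1.22 with variant 4, a difference of -2.65 between the variants (SE 0.14, adjusted p = 0.00138). CPT1C, the CPT1 isoform of the brain, was dim in BT474-Var4 cells and at least 1.54-fold lower there than with variant 1 (fitted -2.25, adjusted p = 0.00393). Its differences from Control (0.92 and -1.33, the latter with no bound over 1-fold) did not pass without Control A, Control B or either BT474-Var1 array, nor the latter without BT474-Var4 B. The list's 3 rises and 3 falls with variant 1 were 1 and 1 without either Control array, 2 and 1 without BT474-Var1 A, and 2 and 3 without BT474-Var1 B. With variant 4 its 1 rise was 0 with any 1 array left out, and its 3 falls were 1 without either Control array or BT474-Var4 B and 2 without BT474-Var4 A.

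**Figure D4:**
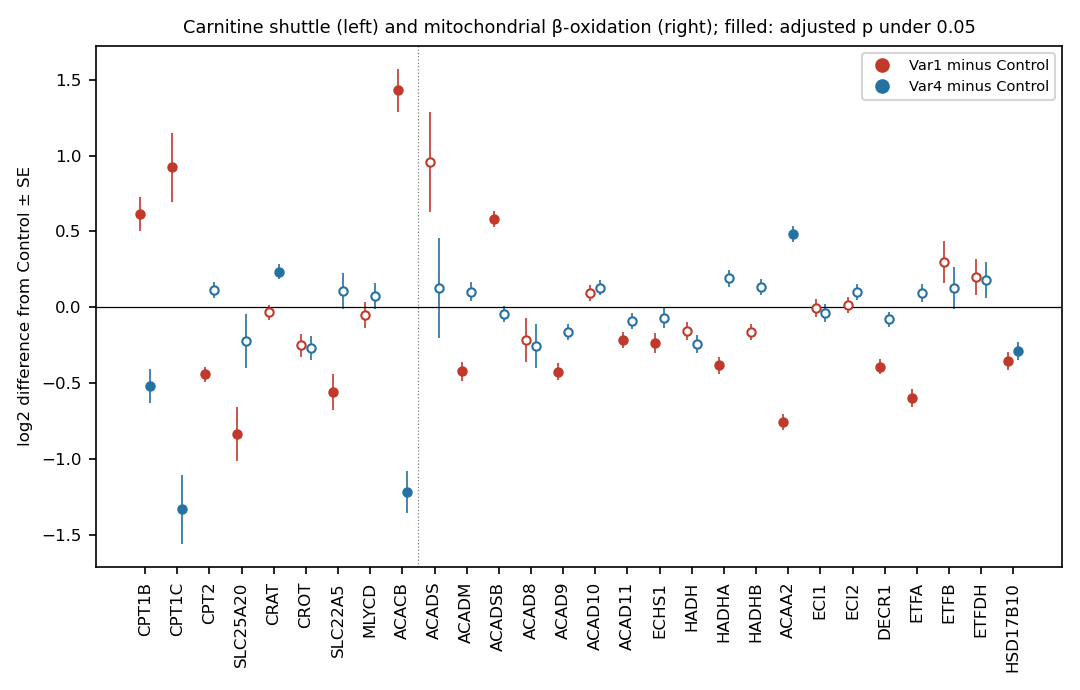
Log2 difference from Control ± SE (y axis) of the 9 carnitine shuttle genes (left of the dotted line) and the 19 mitochondrial β-oxidation genes (right), red for BT474-Var1 and blue for BT474-Var4 cells (2 arrays each); filled points have an adjusted p under 0.05. ACACB lies at 1.43 and -1.22 and ACAA2 at -0.75 and 0.48, and 9 of the 19 β-oxidation genes have filled red points below 0.

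Other routes of fatty acid handling had calls in both directions. Of 16 genes of peroxisomal oxidation, 2 rose and 3 fell in BT474-Var1 cells and 4 rose and 2 fell in BT474-Var4 cells. ECH1 moved by -0.32 with variant 1 and 0.36 with variant 4, SCP2 fell by 0.48 in BT474-Var1 cells, and HACL1 rose by 0.48 in BT474-Var4 cells. Neither ECH1 change passed without any 1 array of the groups it compares, nor HACL1 without either Control array. With 1 array of the compared groups left out, 0 or 1 of the peroxisomal genes rose and 1 or 2 fell with variant 1, and with variant 4 0 passed without either Control array and 1 rose and 0 fell without either BT474-Var4 array. Of 11 uptake and activation genes, 2 rose and 2 fell, and 3 rose and 3 fell. SLC27A6, a fatty acid transporter, was lower in both (-1.08 and -1.06, SE 0.14, adjusted p = 0.00883 and 0.0134, not passing without either Control array), SLC27A1 rose by 0.61 in BT474-Var1 cells, and ACSL3, an acyl-CoA synthetase of lipid droplets, rose by 0.62 in BT474-Var4 cells. The 2 falls of this list with variant 1 were 0 without either Control array. With variant 4, 1 rose and 0 fell without either Control array, and 1 rose and 1 fell without either BT474-Var4 array.

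Of 15 lipid droplet genes, 2 rose and 2 fell in BT474-Var1 cells and 4 rose and 4 fell in BT474-Var4 cells. DGAT2, which makes triglyceride, rose by 0.85 in BT474-Var4 cells, and MGLL rose there by 0.59. LIPE, the hormone-sensitive lipase, fell by 0.85 in BT474-Var4 cells, and ABHD5, the activator of the first triglyceride lipase, fell by 0.44 in BT474-Var1 cells. LIPE did not pass without either Control array, nor MGLL and ABHD5 without Control B. HILPDA, a droplet protein induced by low oxygen, was at 5.94 and 6.04 in Control, 6.51 and 6.55 in BT474-Var1, and 5.43 and 5.62 in BT474-Var4 cells, differing from Control by 0.54 and -0.46 (adjusted p = 0.0134 and 0.0266). Its rise did not pass without any 1 of Control A, Control B, BT474-Var1 A and BT474-Var1 B, nor its fall without Control A, Control B, either BT474-Var1 array or BT474-Var4 A. With 1 array of the compared groups left out, 1 or 2 of the list rose and 1 or 2 fell with variant 1, and 3 or 4 rose and 1 to 3 fell with variant 4.

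Of the kinases that share the role of PDK4, PDK1 changed most. It was at 0.94 and 1.03 in Control, 2.66 and 2.67 in BT474-Var1, and 0.92 and 0.86 in BT474-Var4 cells, 3.21-fold higher in BT474-Var1 cells (1.68, SE 0.06, adjusted p = 0.0023). PDK2 rose by 0.40 in BT474-Var4 cells (adjusted p = 0.0224, not passing without either Control array, either BT474-Var1 array or BT474-Var4 B), and PDK3 differed from Control by 0.03 and 0.12. In the whole list of 11 pyruvate dehydrogenase genes, 2 rose and 3 fell in BT474-Var1 cells and 1 rose and 1 fell in BT474-Var4 cells. DLAT, the acetyl-transferring subunit, fell by 0.58 in BT474-Var1 cells. Without any 1 of the Control and BT474-Var1 arrays, 1 of the list rose and 1 fell with variant 1, and 0 passed with variant 4 without either Control array or BT474-Var4 B.

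Genes induced by low oxygen moved with ANGPTL4, PPARG and PDK1. Of 13 tested genes of that list, which also holds PDK1 and HILPDA, 12 rose and 1, CA12, fell with variant 1 (median 1.68, beside 14.2% and 20.7% of all genes tested), and 3 rose and 1 fell with variant 4 (median -0.09, beside 10.2% and 14.6%). Without Control A or Control B, 9 rose and 0 fell with variant 1, and 0 or 1 rose and 0 fell with variant 4. VEGFA rose by 1.91 and NDRG1 by 3.12 in BT474-Var1 cells. CA9, 1 of the 12 rises, was dim in Control as well as in BT474-Var4 cells. Its level with variant 1 was at least 2.63-fold higher than the Control level. CA9 was tested only because both BT474-Var1 arrays were bright, so nothing is read from its call. The mean levels that follow include its dim values. The mean level of the 13 was 1.88 and 1.84 on the Control, 3.49 and 3.36 on the BT474-Var1, and 1.87 and 1.90 on the BT474-Var4 arrays. Their median level was 1.96 and 2.01 on the Control, 3.40 and 3.36 on the BT474-Var1, and 2.47 and 2.46 on the BT474-Var4 arrays. In BT474-Var4 cells the mean thus stood near the Control level. Each median level is that of 1 probe, P4HA1 on Control A and CA12 on both BT474-Var4 arrays, so the median levels do not compare these groups. The median of the 13 differences from Control was -0.09 with variant 4. ANGPTL4 was higher than Control in both populations, and PLIN2 was higher in neither. The part of low-oxygen signaling in any of the differences above was not tested.

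**Figure D5:**
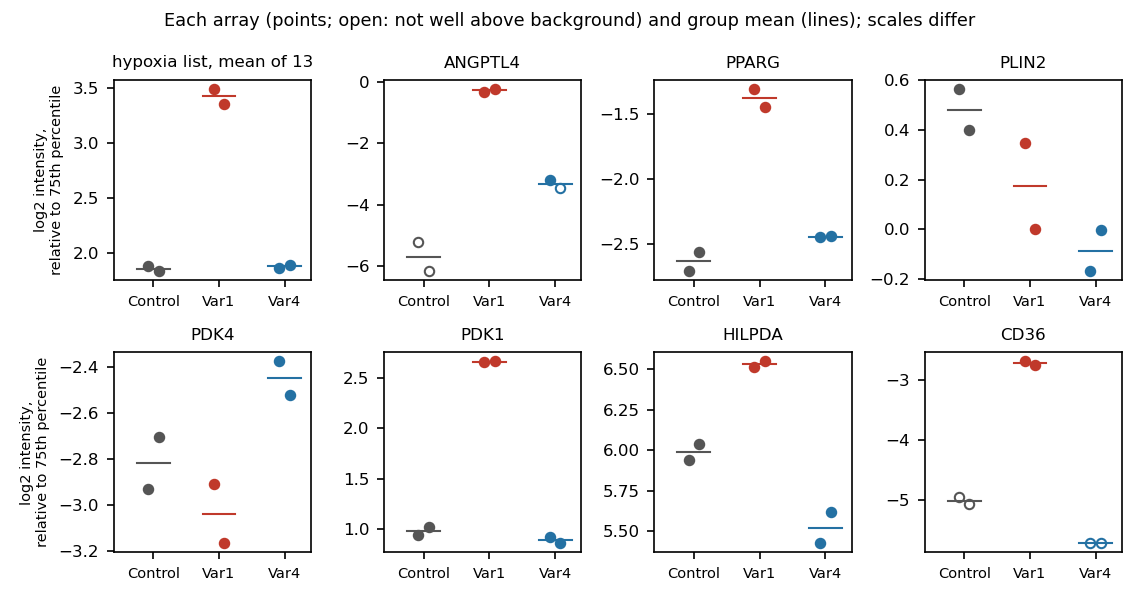
Log2 intensity relative to the 75th percentile (y axes, on scales that differ between panels) on each array, points, with group means as lines, for the mean of the 13 hypoxia-induced genes, ANGPTL4, PPARG (A_23_P252062), PLIN2 (A_23_P134953), PDK4, PDK1, HILPDA and CD36; open points are not well above background. The hypoxia mean, ANGPTL4, PPARG, PDK1, HILPDA and CD36 are highest on the BT474-Var1 arrays, while PLIN2 is highest in Control and PDK4 in BT474-Var4 cells.

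The genes whose levels followed PPARG (A_23_P252062) most closely, by the Euclidean distance between centered log2 values over the 6 arrays, were KDM3A (0.0880), MYH7B (0.122) and PNRC1 (0.166). KDM3A, a histone demethylase, was at 0.62 and 0.75 in Control, 1.93 and 1.91 in BT474-Var1, and 0.83 and 0.87 in BT474-Var4 cells. No other probe of the 8 genes had a range of 1 log2 unit over 6 arrays above background. Fat cell markers were mostly near background: 1 of 6 was above background on all 6 arrays (CFD), and LEP and FABP4 were on none. Of the fibroblast and immune markers on the array 4 of 6 were above background on all 6 arrays, COL1A2 and PDGFRA on none, and COL1A1 was 1.03 higher in BT474-Var4 cells. What part these markers have in the differences was not tested.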

How the data were processed

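RNA of Control, BT474-Var1 and BT474-Var4 cells (2 arrays each) was labeled with 1 dye and hybridized to Agilent arrays. The authors used Feature Extraction 11.5.1.1 for spot quantification and background subtraction, and deposited the spot intensities of each array together with a table of log2 values shifted to the 75th percentile per array. The file headers name design 072363 and place probes on hg19, and the study's methods name another design. Of 62976 spots, 60901 were not controls, and 63 to 128 of these per array were outliers and left out. Log2 processed intensities were averaged per probe, and each array's 75th percentile over the 58201 probes was subtracted. Probes well above background on both arrays of a group were tested with limma 3.58.1 in R 4.3.3, with a mean per group over all 6 arrays (3 residual and 1.53 prior degrees of freedom) and Benjamini-Hochberg adjustment over the 31858 tested probes. The number of arrays limits the precision.

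The members, gene lists and rule for named genes were chosen with earlier results of these data known. The rule named every member probe, the 2 largest rises and falls among passing genes of each list, genes fixed by name (HILPDA, PDK1, CPT2, SLC25A20, ACADM, HADHA, HADHB, PPARGC1A, RXRA and LPL), and the 3 genes nearest to a member. Some genes under this rule are not reported here, and genes outside it were named after their values were seen. Where a group was dim, each of its values was floored at the lowest signal that the array had well above background, and the fold is a bound. Alternatives were normexp with an offset of 50, quantile normalization, the deposited table, no filter, a filter on all 6 arrays, the replicate letter as a block, a trend with robust eBayes, the methods' one-way analysis of variance, only the groups compared, each array left out, and any probe of a gene. The pipeline was tested on simulated data. Promoter sequences are from RefSeq (GRCh38.p14).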

Additional observations from a re-analysis of the deposited data

Results flagged for a closer look

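The fitted difference between the 2 variants (BT474-Var4 minus BT474-Var1, limma adjusted p under 0.05) was 2-fold or more on the following probes and genes, given as log2 differences. Among the chosen genes, which were picked from these arrays and whose differences are a description, it was -1.06 on PPARG A_23_P252062, -1.44 on PPARG A_33_P3350726 and -3.04 for ANGPTL4, and the last 2 were dim on BT474-Var4 array B. Among the other pathway genes, lower in BT474-Var4 cells were CD36 (-3.00), ACACB (-2.65), CPT1C (-2.25), PDK1 (-1.77), PLIN1 (-1.68), CPT1B (-1.13) and HILPDA (-1.01). CD36, PLIN1 and CPT1C were dim on both BT474-Var4 arrays, so their fitted values are no measured fold, and they were at least 2.28-fold, at least 1.71-fold and at least 1.54-fold lower there. Higher in BT474-Var4 cells were ACAA2 (1.24) and CIDEC (1.09). The differences of these 9 pathway genes passed under each alternative that could be fitted. CD36 was tested only because both BT474-Var1 arrays were bright, so nothing is read from its call. ACACB, CPT1B, HILPDA, ACAA2 and CIDEC lay on opposite sides of Control in the 2 populations. Fitted differences from Control also had opposite signs for CD36, CPT1C and PLIN1, which were dim in BT474-Var4 cells. The same held for PDK1 (1.68 and -0.09, the latter not passing).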

How the results depend on the processing

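Where 1 array was left out, the lone array of its group was assumed to vary like those of the other groups. The chosen probes passing in BT474-Var1 against Control cells were 5, and 2 with no filter on dim probes, 3 with the filter on all 6 arrays, the replicate letter as a block, the methods' analysis of variance or only the groups compared, and 3 to 4 with 1 array left out. In BT474-Var4 cells they were 1, and 3 with normexp or a trend and robust eBayes, 0 with no filter (2 at an unadjusted p under 0.05), 2 with only the groups compared, and 0 to 2 with 1 array left out. Between the variants they were 6, 2 with no filter, and 4 to 6 with 1 array left out. Pathway genes passing were 47, 39 and 51 in the 3 comparisons, 11, 5 and 28 with no filter, and 19 to 41, 10 to 27 and 36 to 46 with 1 array left out. The replicate block gave 25 of 39 in BT474-Var4 cells. Differences between the A and B arrays were nearly uncorrelated from group to group (-0.01, 0.05 and -0.02), which does not tell whether the letters pair samples. The block also ended the calls of CPT1A and PPARG A_33_P3350726 in BT474-Var1 cells and of PDK4 and that PPARG probe between the variants.

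Signs turned only on differences of the 10 chosen probes that did not pass. PPARD A_23_P214681 in BT474-Var1 cells was -0.095 with quantile normalization, -0.0054 in the deposited table and -0.14 to 0.14 with 1 array left out, and between the variants -0.025 with normexp and -0.052 to 0.23 with 1 array left out. PPARD A_24_P252130 in BT474-Var1 cells was 0.039 with quantile normalization, and between the variants -0.049 with it and -0.018 to 0.075 with 1 array left out. With normexp, PDK4 and PLIN2 A_33_P3258617 were 0.021 and 0.025 in BT474-Var1 cells, and PPARG A_33_P3350726 was -0.0036 in BT474-Var4 cells, where it was -0.33 to 0.61 with 1 array left out. PLIN2 A_33_P3258617 between the variants was -2.23 to 0.22 with 1 array left out. Of the other recomputed differences of these probes, 370 kept their direction and side of the threshold, 42 no longer passed and 13 came to pass. The cause of these shifts was not tested.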
